A study of Mus musculus with 2 samples.

Results

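The potassium channel genes described here are those whose symbol begins with Kcn, apart from Kcnj1, Kcnj10, Kcnj15 and Kcnj16, inward rectifiers known from the thick ascending limb (TAL). A gene was taken as a member if it held at least 20 counts summed over both libraries. Of 99 Kcn symbols among the 32227 genes measured, 4 were left out by name and 95 remained, and 58 of these passed the minimum. The genes just inside it were Kcnh6 with 20 counts, Kcnj13 with 21 and Kcnj11 with 22. The genes just outside it were Kcnj8 with 18 counts and Kcne2 with 15. Of the 37 below the minimum, 3 had no count. The members were chosen by these totals, so the totals describe the choice and are not a result.

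Potassium channels let potassium leave the cell down its gradient and so set the membrane voltage. In the TAL, potassium that enters with sodium and chloride through NKCC2 returns to the lumen through ROMK (Kcnj1), and basolateral channels, mainly Kir4.1/Kir5.1 heteromers (Kcnj10 and Kcnj16), keep the cell negative. The study found ROMK protein at the lumen and Kir4.1 protein on the basolateral side in different TAL cells. The members described here are the rest of the superfamily. Voltage-gated channels open on depolarization, BK and SK channels open on calcium, Slack channels open on sodium, and 2-pore domain channels carry a background current. Auxiliary subunits change the gating or trafficking of the pore.

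The study sorted GFP-labelled nuclei from kidneys of male mice of strain B6, labelled WT, of age 12 in a unit the labels do not give. Both libraries came from mice that carried an inducible NKCC2-CreERT2 driver and a CAG-Sun1-sfGFP reporter and that had received tamoxifen. Kidney slices were divided by hand, and the superficial strip gave the cortex library and all deeper tissue the medulla library. The number of mice behind a library is not given in the sources used here, and with 1 library per region no difference could be tested across animals. Because recombination follows the NKCC2 (Slc12a1) promoter, labelled nuclei were meant to be those of the TAL and its macula densa.

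Nuclei with at least 10 Slc12a1 counts were placed in 4 classes. Those with at least 3 counts of Nos1 and Pappa2 together were called macula densa (MD). Of the others, those with at least 2 counts of Tmem52b were called β, those with at least 2 counts of Tmem207 and Gpc5 together were called γ, and the remainder were called α. The cortex library held 2824 α, 1493 β, 248 γ and 653 MD nuclei, and the medulla library held 3776 α, 571 β, 3542 γ and 78 MD nuclei. Median depth per class ran from 1883 counts in cortical MD nuclei to 2780 counts in medullary β nuclei, and MD nuclei were the shallowest class in both libraries. A further 224 cortical and 154 medullary barcodes fell below 10 Slc12a1 counts and are called low barcodes. They served as the comparison that should lack TAL genes, together with free RNA, the counts of barcodes outside the filtered matrices. Limits of this comparison are given below. No barcode sequence was shared between the filtered matrices.

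The class labels were checked on genes the gates did not use. The α, β, γ and MD marker lists include genes that the study's tables list for these libraries, so the check is not independent of these data. The MD markers Ptgs2 and Avpr1a were at 85.8 and 6.60 CPM (counts per 1000000 counts) in cortical MD nuclei, and at 126 and 18.1 CPM in medullary MD nuclei, above every other class. Sncaip, Ndst4, Bmp3, Robo2 and Unc5d were likewise highest in MD among the TAL classes of both libraries, while Nox4 was so in the medulla but stood at 603 CPM in cortical MD against 652 in cortical γ-gate nuclei. Of the α list, Cldn10, Ptger3, Cacnb2, Slco3a1, Zfpm2, Robo3 and Wnk4 were all highest in α among the TAL classes of both libraries. Low barcodes did not lack all of these genes. They held Cldn10 at 283 CPM in the cortex and 365 in the medulla, above every TAL class. Slco3a1 was at 742 CPM in cortical low barcodes against 906 in α, and at 1002 against 853 in the medulla. Of the β list, Cldn16, Pth1r, Cadps2, Col5a2, Wnk1 and Enox1 were highest in β nuclei of both libraries, Cldn16 at 188 and 250 CPM. Kcnj10 and Itpr2 were so in the medulla only. In cortical β they stood at 139 and 511 CPM against 144 and 520 in cortical γ-gate nuclei. Of the γ list, Ano4, Prox1, Scel, Sgcz and Enpp2 were highest in medullary γ nuclei, but Rbfox1 was at 863 CPM there against 1129 in medullary β, and Kcnj10 at 109 against 170. By deposited cluster the α gate also took nuclei with β markers. Its 117 and 126 nuclei in cortical clusters 2 and 4 held Cldn16 at 279 and 198 CPM and Cldn10 at 7.87 and 3.73. They held 61 and 41 of the 142 Kcnj10 counts of cortical α. Its 112 nuclei in medullary cluster 6 held Cldn16 at 288 CPM and Cldn10 at 15.4. The α levels and ratios below are over all nuclei of the gate. The medullary γ gate was mixed by deposited cluster as well. Its 359 nuclei in cluster 4 held 0 Kcnj10 counts and its 241 in cluster 3 held 6. Its 202 in cluster 6 held Cldn16 at 263 CPM and Cldn10 at 17.3 CPM. In clusters 2, 5, 7 and 8 its nuclei held Kcnj10 at 80.5 to 227 CPM. The γ levels and ratios below are over all nuclei of the gate. The cortical γ gate also went against its label in part. Kcnj10, Ano4, Rbfox1, Prox1, Scel and Sgcz were higher there than in the other cortical TAL classes. However, Enpp2 was at 253 CPM there against 290 in cortical MD nuclei. The 248 nuclei of this gate also held Cldn16 at 153 CPM against 101 in cortical α, and 132 of them lay in the deposited cluster with the largest number of β nuclei (632). Ano4 stood at 94.5 CPM in these 248 nuclei against 714 in medullary γ nuclei, so the nuclei are called cortical γ-gate nuclei. Markers of other cell types were unevenly spread. At least 5 counts of a foreign marker list were found in 27.5% of α, 33.8% of β, 27.4% of γ-gate and 11.5% of MD nuclei of the cortex, and in 2.56% to 9.46% of the medullary classes. The distal convoluted tubule list among these includes Klk1, which the study also uses in its score of cortical TAL genes. Klk1 was at 767 CPM in cortical α against 275 in low barcodes, and at 353 against 47.5 in the medulla. Of 776 such α nuclei of the cortex, 336 were led by that list, as were 120 of 204 in the medulla. Values given without foreign markers may thus leave out TAL nuclei holding Klk1, which was not tested.

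All levels below are sums of counts over the nuclei of a class, as CPM, with an exact Poisson 95% interval. A ratio between classes carries a conditional binomial 95% interval. Both cover counting error only, and neither covers differences between animals. A member was called higher at a ratio of at least 2 and lower at a ratio of at most 0.5, with at least 20 counts over both classes. A class at 0 counts was set to a floor of 3 counts for a bound. Reads were taken at 3′ ends of nuclear RNA, so levels are compared between classes and not between genes. Shares of counts by gene or family, and words such as scarce, describe the counts held and not transcript abundance.

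The 58 members held 67790 counts in the 4 TAL classes, and 5 of them, Kcnq1ot1, Kcnq1, Kcnma1, Kcnc2 and Kcnk1, held 73.4% of these. The 24 voltage-gated members took 32.4% of the counts, the 7 calcium- or sodium-activated members 22.5%, the 7 2-pore members 12.5%, the 11 auxiliary subunits 4.07% and the 7 remaining inward rectifiers 0.556%. The 2 others, Kcnq1ot1 and Kcnrg, took 28.0%. Of these counts 18911 were of Kcnq1ot1, a noncoding RNA and not a channel. The heat map of 36 members gives every class and library side by side. Among the contrasts in it were those of the MD columns, Kcnma1 and Kcnc2 across α, β and γ, and Kcnt1 and Kcnk5 between cortex and medulla.

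**Figure D1:**
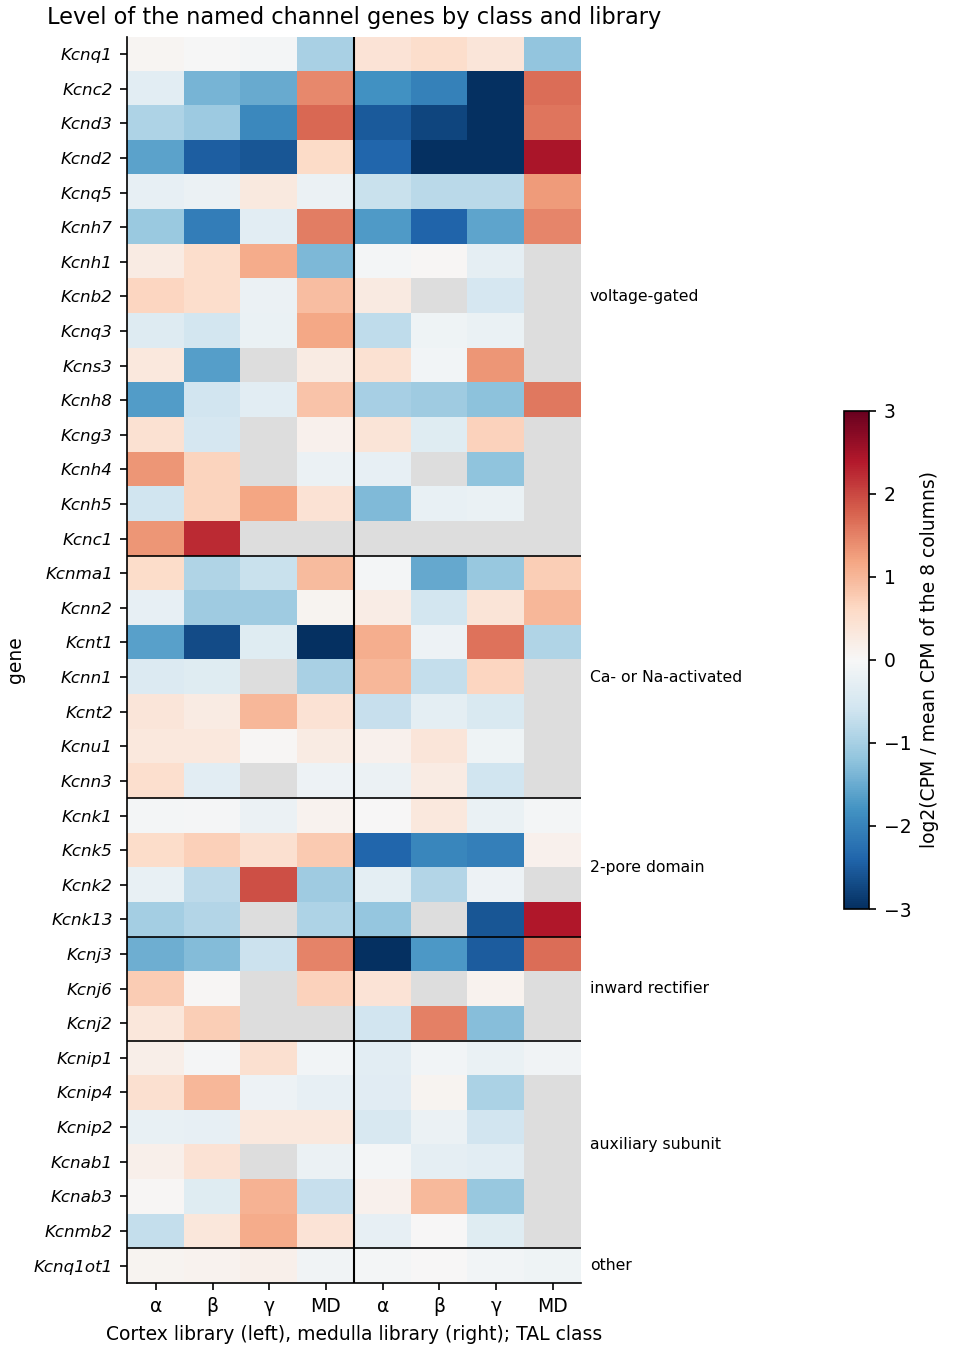
Level of 36 members in each class of the cortex library (left 4 columns) and the medulla library (right 4 columns), as log2 of the CPM over the mean CPM of the 8 columns. Grey cells hold under 3 counts. Kcnc2, Kcnd3, Kcnd2, Kcnh7 and Kcnj3 are red in both MD columns, and Kcnt1 is red in medullary α and γ nuclei.

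Macula densa nuclei, the sensor cells of tubuloglomerular feedback, differed from the other TAL classes in members of several channel families, in both directions. In the cortex library 8 of 44 members with enough counts were higher in MD nuclei and 6 were lower, against 7.24% and 7.92% of all genes. In the medulla library 12 of 42 members were higher and 2 were lower, against 17.8% and 8.49% of all genes. The median ratio of members was 1.11 in the cortex against 1.01 for all genes. In the medulla it was 0.529 against 0.919, or 4.98 against 1.45 when members at 0 in the 78 MD nuclei were set to the floor, so that median is set by how zeros are treated. The members higher in MD nuclei of both libraries were Kcnc2, Kcnd3, Kcnd2, Kcnh7, Kcnj3 and Kcnh8, and those lower in both were Kcnq1 and Kcnt1.

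Kcnc2, a Kv3-family channel that opens and closes fast at strong depolarization, had the most counts of these. In cortical nuclei it was at 328 CPM (316–341) in α, 157 (147–169) in β, 144 (119–173) in γ-gate and 1111 (1061–1162) in MD nuclei. In medullary nuclei it was at 116 CPM (109–123) in α, 101 (86.5–117) in β, 23.5 (20.5–26.9) in γ and 1307 (1139–1493) in MD nuclei. The MD intervals of the libraries overlapped, while α, β and γ levels were lower in the medulla. Free RNA held 290 CPM in the cortex and 81.2 in the medulla. The ratio of MD to the other classes was 4.38 (4.14–4.63) in the cortex and 17.9 (15.4–20.6) in the medulla. At least 1 Kcnc2 count was present in 84.7% (81.7–87.4, exact binomial) of cortical and 80.8% (70.3–88.8) of medullary MD nuclei, against 16.1% and 26.0% of the low barcodes. Among medullary α, β and γ nuclei the share was 13.7%, 14.9% and 3.13%, not above that of the low barcodes. After thinning every nucleus to 1000 counts, which left out 24 shallower medullary barcodes, these shares were 65.7% and 64.5% against 8.07% and 11.2%. The median depth was 2606 counts in cortical and 3870 in medullary low barcodes, above that of the MD nuclei. Medullary low barcodes led by proximal tubule markers held Kcnc2 at 145 CPM (113–184), so they are not a background without this gene.

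Kcnd3 and Kcnd2 encode the pores of A-type channels, which inactivate quickly after opening. Kcnd3 was at 34.7 CPM in α, 30.8 in β, 17.0 in γ-gate and 216 (194–239) in MD nuclei of the cortex. Medullary levels were 11.4 CPM in α, 9.68 in β, 4.64 in γ and 199 (137–279) in MD nuclei. The MD-to-rest ratio was 6.71 (5.83–7.73) and 24.2 (16.1–35.3). A count was found in 32.5% of cortical MD nuclei, against 6.48% of α nuclei and 9.38% of low barcodes, so outside the MD the cortical share was not above that of the low barcodes. In the medulla it was 24.4% of MD nuclei, 2.20% of α nuclei and 0.649% of low barcodes. Free RNA held 57.2 and 11.8 CPM. The 40 cortical low barcodes that no marker list led held Kcnd3 at 181 CPM (99.0–304), so they are not a background without it.

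Kcnd2 was at 21.1 CPM in α, 11.5 in β, 10.9 in γ-gate and 95.4 (81.1–111) in MD nuclei of the cortex. Medullary levels were 12.3 CPM in α, 6.83 in β, 7.29 in γ and 349 (265–452) in MD nuclei, giving ratios to the rest of 5.64 (4.58–6.92) and 36.5 (26.8–49.3). Low barcodes held 7.79 and 10.2 CPM, and free RNA 27.6 and 14.8 CPM. Its MD counts were concentrated in few nuclei. In the medulla all 58 counts lay in 10 of 78 MD nuclei, 20 of them in 1 nucleus, and in the cortex 159 counts lay in 55 of 653. Kcnc2 and Kcnd3 were found together in 27.1% of cortical MD nuclei, where the product of their separate shares was 27.5%. Kcnd2 and Kcnd3 were found together in 2.30%, with a product of 2.73%.

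Kcnh7, an ether-a-go-go related channel, was at 43.8 CPM (34.3–55.0) in cortical and 42.2 (17.0–86.9) in medullary MD nuclei. Across α, β and γ it ranged from 2.85 to 12.1 CPM, for ratios of 7.22 (5.21–9.99) and 8.96 (3.51–19.2). Medullary low barcodes held it at 57.7 CPM, with 30 of the 34 counts in 19 barcodes that no marker list led. Kcnj3, a G-protein-gated inward rectifier subunit, was at 26.4 CPM (19.2–35.4) in cortical and 30.1 (9.78–70.3) in medullary MD nuclei, where the latter rested on 5 counts. The other classes held it at 1.17 to 6.06 CPM, and no low barcode had a count. Kcnh8, of the Elk group, was at 10.8 CPM (6.40–17.1) and 18.1 (3.73–52.8) in MD nuclei on 18 and 3 counts, against 1.88 to 4.85 CPM in the other classes. Free RNA of the cortex held Kcnh8 at 9.58 CPM (6.67–13.3), close to the MD level.

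**Figure D2:**
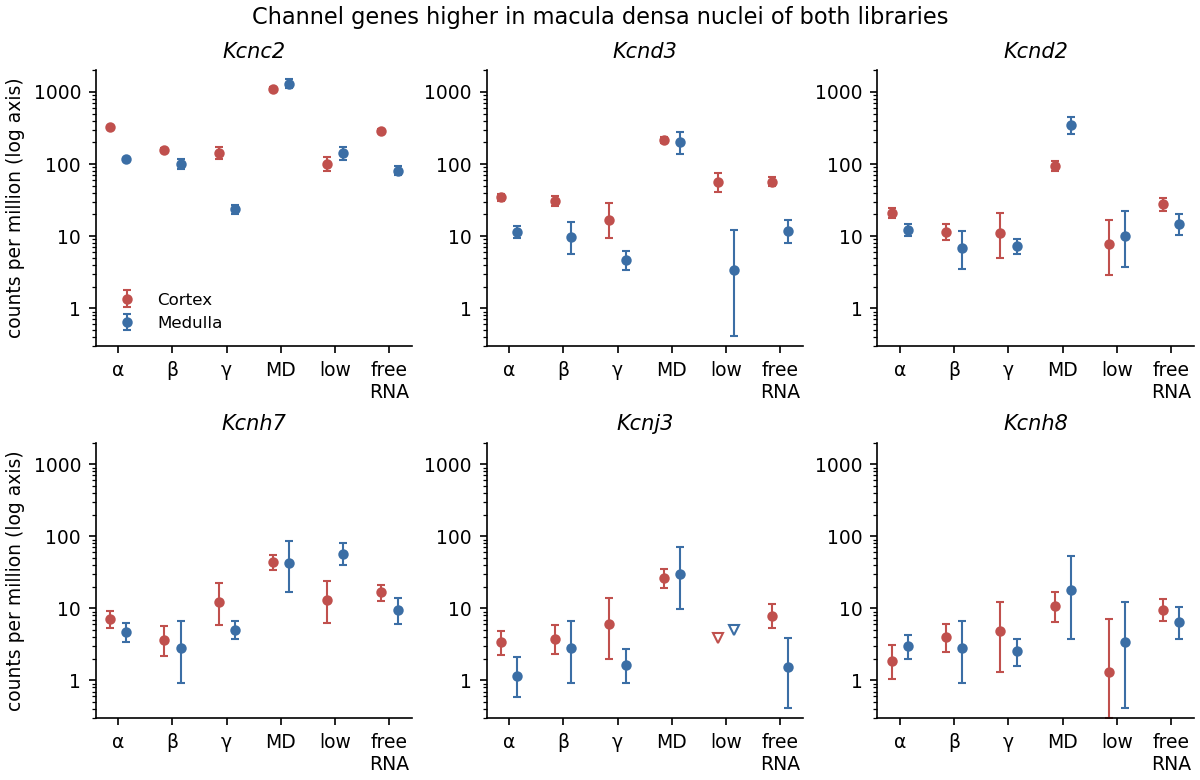
CPM (log axis) of the 6 members higher in MD nuclei of both libraries, by class, with low barcodes and free RNA, for cortex (red) and medulla (blue). Bars are exact Poisson 95% intervals and open triangles mark the floor of 3 counts where none was found. The MD points lie above α, β and γ of the same library in every panel.

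Among members higher in MD nuclei of both libraries, Kcnc2, Kcnd2 and Kcnd3 held the most counts. The stretches before their first annotated base are shown. They are from GRCm39 with GENCODE M39 gene starts, 250 bases each on the plus strand, at chr10:112104976-112105225, chr6:21214616-21214865 and chr3:105359034-105359283. Capitals mark matches on either strand to GGGCGG, the core of a GC box, or to AAGGTCA, a half-site of nuclear receptors.
Kcnc2: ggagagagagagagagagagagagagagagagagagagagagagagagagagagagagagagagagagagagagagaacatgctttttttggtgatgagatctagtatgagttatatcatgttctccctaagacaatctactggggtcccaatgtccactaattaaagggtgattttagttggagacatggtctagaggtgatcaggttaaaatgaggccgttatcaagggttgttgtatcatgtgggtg
Kcnd2: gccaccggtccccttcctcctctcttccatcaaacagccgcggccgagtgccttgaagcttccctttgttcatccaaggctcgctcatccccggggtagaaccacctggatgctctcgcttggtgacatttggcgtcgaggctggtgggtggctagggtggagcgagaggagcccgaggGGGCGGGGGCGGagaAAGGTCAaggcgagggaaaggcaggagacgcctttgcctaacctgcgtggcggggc
Kcnd3: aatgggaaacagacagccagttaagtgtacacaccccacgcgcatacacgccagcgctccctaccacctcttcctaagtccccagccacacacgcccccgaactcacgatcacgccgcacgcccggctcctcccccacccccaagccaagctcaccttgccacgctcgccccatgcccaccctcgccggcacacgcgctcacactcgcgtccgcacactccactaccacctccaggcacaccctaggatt
Only Kcnd2 held a match, with 2 of GGGCGG and 1 of AAGGTCA. Over the same stretch of 21770 protein-coding genes, 29.9% held GGGCGG and 4.35% held AAGGTCA. None of the 3 stretches held TATAAA, the core of a TATA box, which 12.5% of genes held. TGACGTCA, the cAMP response element, was in none of them and in 1.31% of genes. TGANTCA, the AP-1 motif, was likewise in none and in 6.46% of genes. GTTAAT, a half-site of HNF1 factors, was in none and in 6.88%. The GC content was 43.6% for Kcnc2, which opens on a run of GA repeats, 64.4% for Kcnd2 and 64.8% for Kcnd3, against a median of 51.2%. A gene's first annotated base need not be the start used in these cells.

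Some MD calls were made in 1 library only, and the difference between the libraries was not tested. Kcnq3, a subunit of M-type channels, was at 12.6 CPM in cortical MD nuclei against 4.14 in the rest, for a ratio of 3.04 (1.75–5.09), but 11 of its 21 MD counts lay in 1 nucleus. In medullary MD nuclei Kcnq5 was at 36.1 CPM against 8.91 on 6 counts, 4 of them in 1 nucleus, and its call was lost in 2 of 10 alternatives. Kcnk13 was at 24.1 CPM against 1.39 on 4 counts, 3 of them in 1 nucleus. Kcnip2 and Kcnn3 passed the ratio there on 2 and 1 counts, and their intervals, 0.262–8.10 and 0.0550–12.8, hold 1. Kcnh1, Kcnh4, Kcnj2 and Kcnc1 were lower in cortical MD nuclei on 4, 3, 1 and 1 counts. The last 3 intervals hold 1.

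Kcnk5 encodes the alkaline-activated 2-pore channel TASK2, known from the proximal tubule. Over all nuclei it seemed even in the cortex, at 145 CPM (137–153) in α, 163 (152–174) in β, 139 (115–167) in γ-gate and 170 (151–191) in MD nuclei. Medullary nuclei held 19.2 CPM (16.5–22.2) in α, 25.6 (18.7–34.3) in β, 23.9 (20.8–27.3) in γ and 108 (64.3–171) in MD nuclei. Low barcodes held 435 and 451 CPM, and those led by proximal tubule markers held 643 and 537 CPM. The medullary ratios depended on how nuclei were assigned. With deposited clusters β to α was 122 (65.7–257) and γ to β 0.0131 there. Clusters 6 and 10 stood for β, and cluster 10 held 58 α, 17 β and 58 γ nuclei by gate. The α, β and γ nuclei of cluster 6 held 0, 0 and 1 Kcnk5 counts, so the ratio of 122 does not describe β-gate nuclei. Gates on thinned counts gave 0.493 for β to α and 0.462 for γ to α. In the cortex, Kcnk5 had 670 counts in the 158 α nuclei and 557 in the 123 β nuclei of cluster 6. Cluster 7 had 394 in 170 α and 257 in 110 β nuclei, against 18 in the 1310 α nuclei of cluster 1. The 10 proximal tubule markers, like Kcnk5, were higher in the cortex than in the medulla. The part of proximal tubule RNA in the Kcnk5 values was not tested. The sum of these markers was 3346 to 4469 CPM in cortical α, β and γ-gate nuclei and 2435 in cortical MD nuclei. It was 563 to 859 CPM in the medullary classes, with no marker at 0. Cortical MD nuclei had the lowest sum of their library beside the highest Kcnk5. Medullary MD nuclei, at 687 CPM, lay within the range of the other medullary classes.

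Leaving out nuclei that carried at least 5 counts of a foreign marker list lowered Kcnk5 in every class but medullary MD, and least in cortical MD among the others. It was then at 13.0 CPM (9.97–16.7) in α, 6.10 (3.41–10.1) in β, 4.48 (0.542–16.2) in γ-gate and 94.3 (77.5–114) in MD nuclei of the cortex. Medullary nuclei held 1.64 CPM (0.896–2.75) in α, 0 counts in β, 2.01 (1.17–3.21) in γ and 108 (62.7–172) in MD nuclei. The MD-to-rest ratio rose from 1.12 (0.989–1.27) to 9.16 (6.80–12.4) in the cortex, and from 4.96 (2.91–7.94) to 64.2 (33.3–120) in the medulla, on 17 MD counts. An alternative added after the data were seen also left out 188 α, 60 β and 17 γ-gate nuclei of the cortical clusters assigned to MD. All 60 β nuclei lay in cluster 10, where only 49 nuclei passed the MD gate. The nuclei left out are called missed MD nuclei below, though their identity was not tested. Cortical α then fell to 4.95 CPM (3.10–7.49) and the cortical ratio was 22.5 (14.9–34.9).

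**Figure D3:**
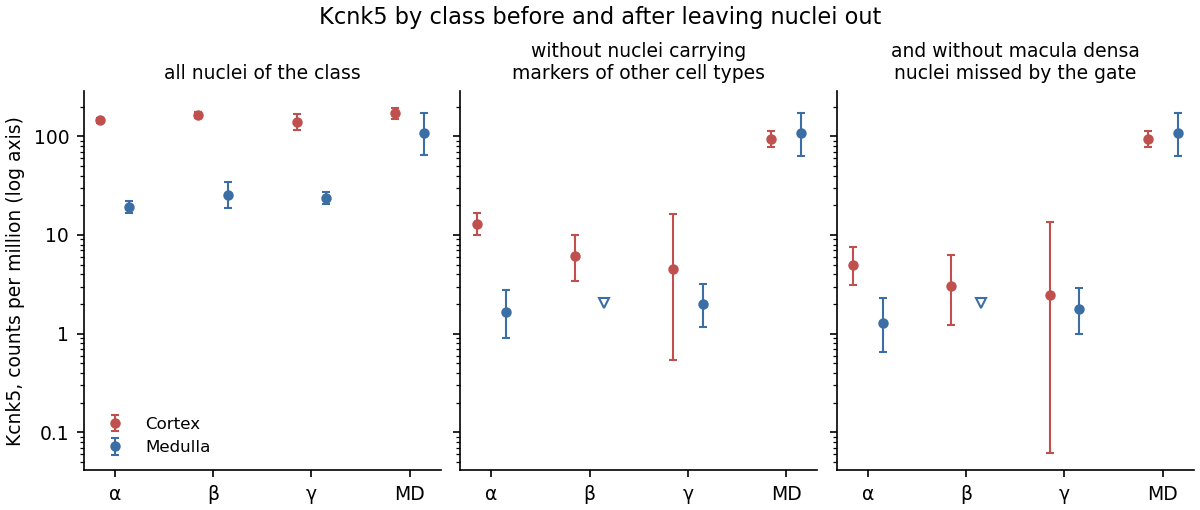
Kcnk5 CPM (log axis) by class in all nuclei (left), without nuclei carrying markers of other cell types (middle), and also without nuclei outside the MD gate in clusters assigned to MD (right), for cortex (red) and medulla (blue). Bars are exact Poisson 95% intervals and the open triangle marks the floor of 3 counts. The α, β and γ points fall to at most 13.0 CPM in the middle panel while MD stays between 94.3 and 170 CPM.

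Kcnq1, the voltage-gated channel that pairs with Kcne subunits, went the other way in the MD. It was at 256 CPM in α, 240 in β, 234 in γ-gate and 124 (108–142) in MD nuclei of the cortex. Medullary nuclei held 324 CPM in α, 349 in β, 316 in γ and 108 (64.3–171) in MD nuclei, so the ratio of MD to the rest was 0.499 (0.431–0.574) and 0.336 (0.199–0.531). The cortical value lost its call under stricter settings of the gates and with deposited clusters, reaching 0.541. The α, β and γ levels ran from 234 to 256 CPM in the cortex and from 316 to 349 in the medulla. Low barcodes led by distal convoluted tubule markers held 910 CPM (738–1109) in the cortex and 1030 (673–1510) in the medulla, above every TAL class. The part of distal convoluted tubule RNA in the TAL values was not tested.

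Kcnq1 and its antisense transcript Kcnq1ot1 overlap at chr7:142731402-142850327, inside Kcnq1 (chr7:142660099-142980788, GRCm39). Whether counting used strand is not given in the sources used here, so reads of the pair may be mixed. Kcnq1ot1, an imprinted noncoding RNA that silences neighbouring genes in cis, ran from 476 to 587 CPM over the 8 class levels and from 415 to 467 CPM in low barcodes and free RNA. Its MD ratio was 0.869 (0.807–0.934) and 0.943 (0.746–1.18), against 0.499 and 0.336 for Kcnq1. In all, 30 of the 58 members overlap another gene of the files.

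Between α and β nuclei, the Cldn10-rich and Cldn16-rich cells of the TAL, a few channel genes differed, and those with the most counts were lower in β. In the cortex 3 of 41 members were higher in β and 4 were lower, against 2.70% and 2.28% of all genes. In the medulla 0 of 34 were higher and 6 were lower, against 3.23% and 4.99%. The median ratio of members was 0.935 in the cortex and 0.890 in the medulla, with 1.01 and 0.985 for all genes. Kcnma1 and Kcnt1 were lower in β nuclei of both libraries. The 0 in the medulla rests on ratios and no test was run.

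Kcnma1, the pore of the large-conductance BK channel that opens on calcium and depolarization, was at 377 CPM (364–391) in cortical α and 136 (126–147) in cortical β nuclei. In the medulla it was at 248 CPM (238–258) in α, 88.8 (75.4–104) in β and 116 (109–123) in γ nuclei. The β-to-α ratio was 0.361 (0.332–0.392) and 0.358 (0.303–0.421) in cortex and medulla, the latter 0.566 with deposited clusters in place of gates. There clusters 6 and 10 stood for β, with 451 and 17 β nuclei by gate among 765 and 135 barcodes. The ratio of γ to α in the medulla was 0.468 (0.435–0.504) over all nuclei. Within single clusters that held at least 100 nuclei of both classes the gap was smaller, as given below. The γ-gate nuclei of the cortex, at 161 CPM (135–191), lay near β. MD nuclei were at 495 CPM (462–530) and 428 (334–539), with MD-to-rest ratios of 1.80 (1.67–1.95) and 2.44 (1.90–3.09), of which only the second passed 2-fold. Low barcodes held 179 and 358 CPM and free RNA held 244 and 166 CPM. A count was found in 53.3% of cortical α nuclei against 56 of 224 low barcodes, but in 35.4% of medullary α nuclei against 40.3%, so the medullary share was not above that of the low barcodes. Those barcodes were deeper, at a median of 3870 counts against 2404 in medullary α. Of the 154, 103 were led by proximal tubule markers and held Kcnma1 at 434 CPM (377–497), so they are not a background without this gene. Without nuclei carrying foreign markers cortical α rose to 413 CPM and β fell to 106 CPM.

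Kcnt1 encodes Slack, a channel opened by intracellular sodium. It was at 18.2 CPM (15.4–21.4) in α, 8.80 (6.44–11.7) in β, 43.6 (30.6–60.4) in γ-gate and 4.20 (1.69–8.65) in MD nuclei of the cortex. Medullary nuclei held 120 CPM (114–128) in α, 51.2 (41.2–63.0) in β, 176 (167–185) in γ and 30.1 (9.78–70.3) in MD nuclei. Over all nuclei of each class, the order γ above α above β held in each library, with intervals that did not overlap. Within single medullary clusters γ was not always above α, as given below. In the medulla the ratio of β to α was 0.425 (0.339–0.527) and that of γ to β was 3.43 (2.77–4.29), and in the cortex β to α was 0.483 (0.339–0.678). The cortical β-to-α call was lost in 3 of 9 alternatives, at 0.506 with Slc12a1 of at least 20, 0.514 with stricter gates and 0.559 with gates on thinned counts, and the medullary call in 1 of 10, at 0.586 with gates on thinned counts. No Kcnt1 count was found in the low barcodes, which allows up to 3.89 CPM in the cortex and 5.09 in the medulla. Medullary free RNA held 190 CPM (174–208) and cortical free RNA 13.7 (10.2–18.0). At least 1 count was found in 32.8% of γ, 22.8% of α and 11.4% of β nuclei of the medulla, and in 15.9%, 11.3% and 4.63% after thinning.

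**Figure D4:**
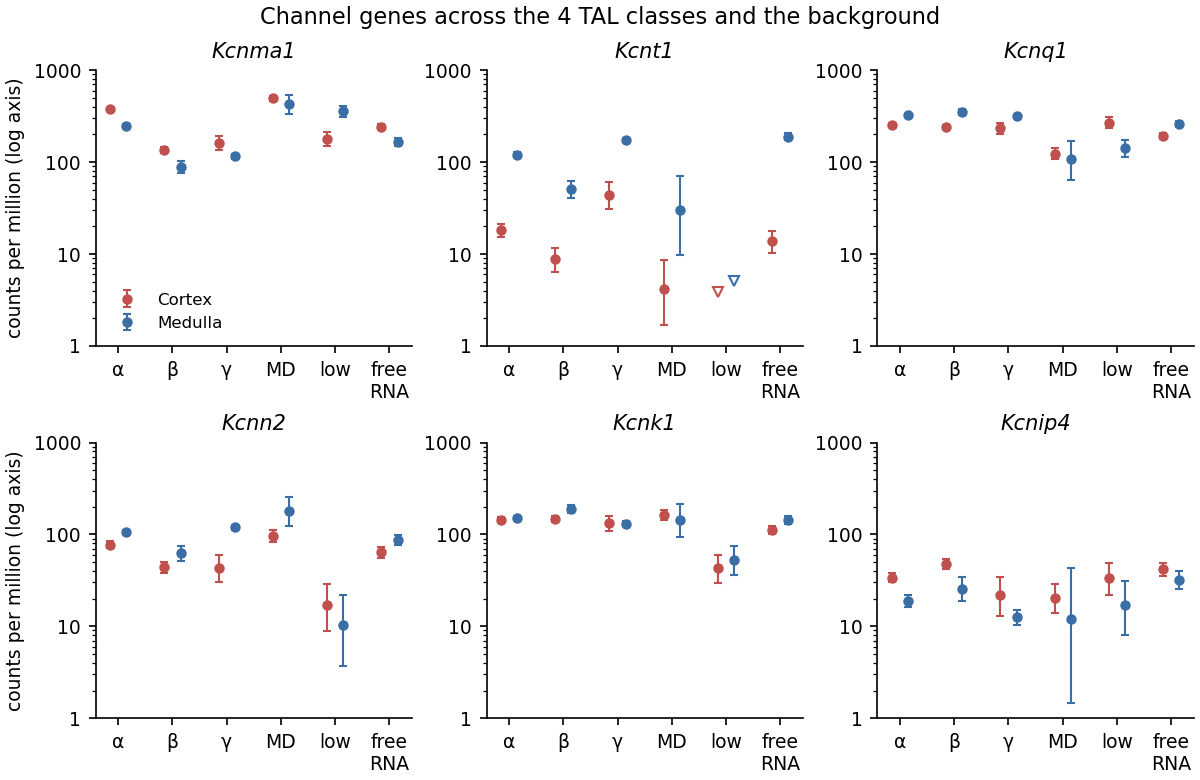
CPM (log axis) of 6 members by class, with low barcodes and free RNA, for cortex (red) and medulla (blue). Bars are exact Poisson 95% intervals and open triangles mark the floor of 3 counts. Kcnma1 dips in β and γ, Kcnt1 is higher in every medullary TAL class than in its cortical counterpart, Kcnq1 dips in MD, and Kcnk1 is level across the TAL.

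The small-conductance SK channels, opened by calcium alone, split by member. Kcnn2 was at 77.6 CPM (71.6–84.0) in α, 43.8 (38.3–49.8) in β, 43.6 (30.6–60.4) in γ-gate and 96.6 (82.2–113) in MD nuclei of the cortex. In the medulla it was at 107 CPM (100–113), 62.0 (50.9–74.8), 119 (112–126) and 181 (122–258). The β-to-α ratio was 0.564 (0.483–0.658) and 0.582 (0.474–0.710), alike in the libraries and short of 2-fold. Kcnn1 was scarcer, at 9.28 CPM in α, 2.85 in β and 7.29 in γ nuclei of the medulla, where β to α was 0.307 (0.0972–0.744) on 5 β counts. In cortical α it was at 3.52 CPM. Kcnn3 ran from 1.21 to 6.02 CPM. Kcnt2 (Slick), a relative of Kcnt1, ran from 2.99 to 9.70 CPM and Kcnu1, the sperm-type relative of BK, from 3.20 to 4.55 CPM, both over the classes with a count.

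Kcnc2 differed among α, β and γ as well. Its β-to-α ratio was 0.480 (0.443–0.519) in the cortex but, at 101 against 116 CPM, not past 2-fold in the medulla. The cortical call was lost in 2 of 10 alternatives, gates on thinned counts and the γ gate before the β gate, with a highest value of 0.537. In medullary γ nuclei it was lower than in α, with a ratio of 0.203 (0.175–0.236), and lower than in β, with a ratio of 0.233 (0.190–0.287). Kcnd3 went the same way in the medulla at far lower counts, with γ-to-α and γ-to-β ratios of 0.407 (0.277–0.586) and 0.479 (0.267–0.898). The first was lost in 1 alternative of 10, at 0.516, and the second in 2, reaching 0.588. Within single medullary clusters Kcnd3 was not always lower in γ than in α, as given below.

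Of 41 members compared between γ and α nuclei of the medulla, 1 was higher in γ and 5 were lower, against 1.33% and 2.98% of all genes. The higher member was Kcnh5, an Eag channel, on 21 and 10 counts with an interval of 0.980–5.17. The lower members were Kcnma1, Kcnc2, Kcnd3, Kcnab3 and Kcnk13, the last lost in 3 of 10 alternatives, and the median ratio was 0.921 against 1.00 for all genes. Of 36 members compared between γ and β nuclei, 6 were higher in γ and 4 were lower, against 5.30% and 5.16%. Kcnt1 had the most counts of those higher. Kcnn1, Kcnb2, Kcns3 and Kcng3, also among the 6, rested on 2 to 5 counts in the β nuclei. Kcnc2, Kcnd3, Kcnip4 and Kcnab3 were lower, and the median ratio was 0.940 against 1.01.

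The delayed rectifier Kcnb2 and the silent subunits Kcns3 and Kcng3, which modify channels of its family, were scarce. Kcnb2 was at 4.90 CPM in α, 1.14 in β and 2.87 in γ nuclei of the medulla, the β level on 2 counts. Kcns3 was at 3.77 CPM in α and 0.956 in β nuclei of the cortex, for a ratio of 0.254 (0.0769–0.661), and at 7.62 CPM in medullary γ nuclei. Kcng3 ran from 1.53 to 3.53 CPM where it was found. The β levels of these 3 genes rested on 2 to 31 counts.

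Kcnq5, Kcnh1 and Kcnh4 gave no call between α and β in either library, nor for γ in the medulla. Their MD calls are given above, and Kcnh4 was also called lower in cortical γ-gate than in α nuclei. Kcnq5 was at 8.50 to 18.2 CPM outside the medullary MD. Kcnh1 was at 5.08 to 13.3 CPM in the α, β and γ classes, and Kcnh4 at 0.883 to 5.15 CPM. In the cortex Kcnh8 and Kcnh5 were higher in β than in α, on 21 against 15 counts and 22 against 14 counts, with ratios of 2.13 (1.05–4.45) and 2.39 (1.17–5.06). The first was lost in 3 of 10 alternatives, with a lowest value of 1.67, and the ratio of Kcnh5 was 0.581 without nuclei carrying foreign markers.

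Among the 2-pore channels Kcnk1 (TWIK1) was level. It was at 145, 146, 132 and 162 CPM in α, β, γ-gate and MD nuclei of the cortex and at 151, 188, 131 and 145 CPM in those of the medulla, and low barcodes held 42.8 and 52.6 CPM. The largest ratio among its classes was medullary γ to β, 0.695 (0.614–0.787). Kcnk2, the stretch-sensitive TREK1, was at 3.42 to 5.63 CPM in α, β and medullary γ nuclei. Its 24.2 CPM in cortical γ-gate nuclei came from 20 counts, 11 of them in 1 nucleus. Kcnk13 (THIK1) was at 0.773 to 2.49 CPM outside the medullary MD.

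The inward rectifiers other than those left out by name were scarce in TAL nuclei. Kcnj2, a strong rectifier of muscle and nerve, ran from 0.600 to 4.55 CPM over the classes with a count, on at most 16 counts a class, and Kcnj6, a partner of Kcnj3, from 1.14 to 3.14 CPM. Medullary MD nuclei held no count of either. Kcnj6 was lower in β than in α nuclei of the medulla on 2 counts, with an interval of 0.0531–1.88. For comparison, Kcnj1 was at 366 to 510 CPM in the cortical classes other than MD and 513 to 694 in the medullary ones, and Kcnj10 was 7.80-fold (6.51–9.40) and 12.8-fold (10.4–16.0) higher in β than in α. Kcnj10 thus moved opposite to Kcnma1 and Kcnt1 between these classes.

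Among auxiliary subunits few ratios passed 2-fold. Kcnip1, Kcnip2 and Kcnip4 encode KChIP proteins that bind the pores of the Kcnd family, and none of the 3 passed 2-fold in cortical MD nuclei, where Kcnd3 and Kcnd2 did. Kcnip4 was at 33.9 CPM in α, 48.2 in β, 21.8 in γ-gate and 20.4 in MD nuclei of the cortex, and at 19.0, 25.6, 12.6 and 12.0 CPM in the medulla. Its β-to-α ratio was 1.42 (1.19–1.69) and 1.35 (0.951–1.88), and in the medulla γ to β was 0.491 (0.345–0.710), a call lost in 3 of 10 alternatives, where it reached 0.641. Kcnip1 was at 25.9 to 44.8 CPM in all classes, with low barcodes at 51.9 and 49.2 CPM, and Kcnip2 at 5.19 to 12.0 CPM. Kcnab1 ran from 2.42 to 6.02 CPM, and Kcnab3, another β subunit of Kv channels, was at 3.20 CPM in α, 5.69 in β and 1.33 in γ nuclei of the medulla on 30, 10 and 12 counts. Kcnmb2, a β subunit of BK, was at 1.38 CPM in α and 2.87 in β nuclei of the cortex on 11 and 15 counts, 7 of the latter in 1 nucleus, with an interval of 0.891–5.00. Dpp6 and Dpp10, further partners of the Kcnd pores, were at 8.10 to 20.5 CPM in all classes.

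Between regions, α nuclei were compared because both libraries held many of them. Of 42 members, 2 were higher in the medulla and 7 were lower, against 2.01% and 11.0% of all genes, and the median ratio was 0.778 against 0.935. Kcnt1 was 6.62-fold (5.56–7.92) and Kcnn1 2.64-fold (1.71–4.20) higher in medullary α nuclei. Lower in the medulla were Kcnc2 at 0.353 (0.328–0.379), Kcnk5 at 0.133 (0.113–0.155), Kcnd3 at 0.329 (0.261–0.413), Kcnt2 at 0.476 (0.288–0.770), Kcnj3 at 0.346 (0.155–0.721) and Kcnh4 at 0.331 (0.174–0.604), which became 1.12 without nuclei carrying foreign markers. Kcnc1 had 21 counts in cortical α nuclei and none in medullary ones, at least 8.24-fold lower against the floor of 3 counts, but 19 of the 21 lay in 1 nucleus. Region and library cannot be told apart here. Cortical nuclei also carried more of the proximal tubule markers named above. Over 10 alternatives, which include leaving out nuclei with foreign markers, the ratios stayed past 2-fold for Kcnt1 (4.87–6.82), Kcnn1 (2.61–3.46), Kcnc2 (0.274–0.359), Kcnd3 (0.255–0.348), Kcnj3 (0.243–0.428) and Kcnk5 (0.0992–0.261). That of Kcnt2 ran from 0.418 to 0.582 and was lost in 3 of the 10, none of them the one without foreign markers, and that of Kcnh4 was also lost in 3. Without foreign-marker and missed MD nuclei, the Kcnk5 ratio was 0.261 (0.114–0.563).

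Deposited clusters, made by PIPseeker without the gates, showed how these levels were spread. In cortical cluster 3, where 537 nuclei passed the MD gate, a further 160 passed only the α gate and held Kcnc2 at 1390 CPM, Kcnd3 at 301 CPM and no Kcnt1 count, close to the MD nuclei beside them (1494, 283 and 0). Cortical cluster 8, with 255 α nuclei, held Kcnc2 at 652 CPM and Kcnd3 at 113 CPM. In cortical cluster 1, with 1310 α nuclei, Kcnc2 was at 359 CPM and Kcnd3 at 17.3 CPM. The α nuclei of cluster 3 held 383 of the 2614 Kcnc2 counts of cortical α nuclei and 83 of the 276 Kcnd3 counts. Without nuclei of the clusters assigned to MD and without nuclei carrying foreign markers, cortical α nuclei held Kcnc2 at 322 CPM (305–339) and Kcnd3 at 27.7 CPM (23.0–33.0).

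Medullary clusters differed in Kcnc2 and Kcnt1. Cluster 1, with 1489 α nuclei, held Kcnc2 at 197 CPM, Kcnma1 at 357 CPM and Kcnt1 at 59.9 CPM. Cluster 4, with 644 α nuclei, held them at 16.3, 135 and 210 CPM, and cluster 5, with 936 γ nuclei, at 8.96, 65.4 and 269 CPM. Cluster 6, with 451 β nuclei, held 119, 86.8 and 37.4 CPM. Within clusters 2, 3, 4 and 8, α and γ nuclei differed less for Kcnc2 than α nuclei differed between clusters, from 7.48 to 197 CPM. For Kcnma1, γ and α nuclei held 129 and 153 CPM in cluster 2 and 154 and 192 in cluster 3. They held 116 and 135 in cluster 4, 80.5 and 96.0 in cluster 6 and 136 and 213 in cluster 8. For Kcnt1, γ was below α in cluster 2, at 141 against 187 CPM. Kcnt1 in γ was at 180 against 177 in cluster 3 and 221 against 210 in cluster 4. In clusters 6 and 8 it was at 57.5 against 30.7 and 233 against 182. In the cortex Kcnt1 stood at 99.6 CPM in the 363 α nuclei of cluster 5 and at 11.0 CPM in those of cluster 1. These values describe single clusters of 1 library each, made from the same counts.

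**Figure D5:**
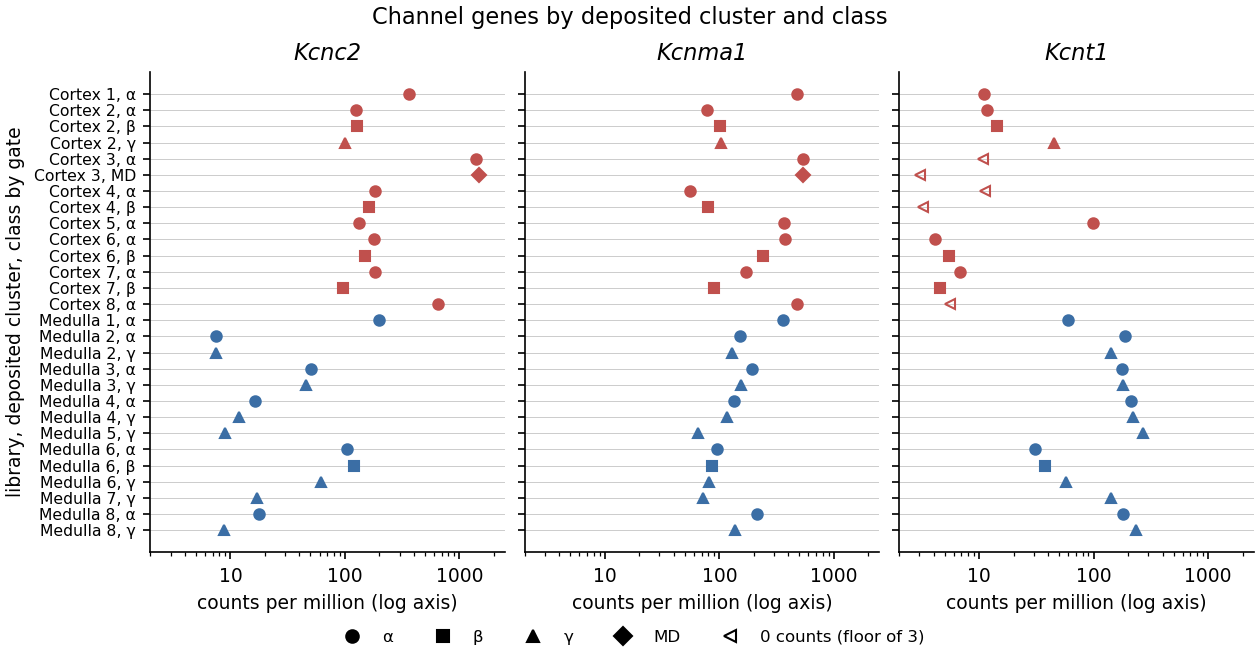
CPM (log axis) of Kcnc2, Kcnma1 and Kcnt1 in each deposited cluster and class of at least 100 nuclei, for cortex (red) and medulla (blue). Symbols give the class and open triangles mark the floor of 3 counts. Cortical cluster 3 is highest for Kcnc2 in both its classes, and medullary clusters with little Kcnc2 hold Kcnt1 above 100 CPM.

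The 19 members with fewer counts and no ratio past 2-fold were Kcnab2, Kcnk4, Kcnj12, Kcnrg, Kcnip3, Kcnk10, Kcne1, Kcna1, Kcng2, Kcnd1, Kcnmb3, Kcnmb4, Kcnj5, Kcng1, Kcnh3, Kcnk12, Kcnj11, Kcnj13 and Kcnh6. They held 16 to 81 counts each over the TAL classes, with a median of 27.0, and 0.913% of all member counts. None of them passed 2-fold with enough counts. Kcna1, a Kv1-family channel, had 18 counts in medullary low barcodes against 10 in all medullary α, β and γ nuclei together. Kcne1, a partner of Kcnq1, had 34 TAL counts, 4 of them in cortical MD nuclei.

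A list of 22 partner genes gave a second view of the MD and β patterns. Cacna1d, a voltage-gated calcium channel pore, was higher in MD nuclei of both libraries, at 1008 and 1072 CPM against 390 and 340 in the rest. Cacnb2, a calcium channel β subunit, was at 375 CPM in α and 78.8 in β nuclei of the cortex and at 589 and 62.0 CPM in the medulla. Its β-to-α ratio was 0.210 (0.189–0.233) and 0.105 (0.0863–0.127), and Kcnma1 was lower there as well. Cacnb4 was lower in MD nuclei of both libraries, with ratios of 0.251 (0.226–0.277) and 0.113 (0.0857–0.146). Of 16 partners with enough counts, 0 were higher and 3 lower in cortical β than α nuclei, against 2.70% and 2.28% of all genes, and 0 were higher and 1 lower in medullary β nuclei, against 3.23% and 4.99%. In MD nuclei 1 of 16 was higher and 3 were lower in the cortex, against 7.24% and 7.92% of all genes, and 1 of 18 was higher and 4 were lower in the medulla, against 17.8% and 8.49%. The partner higher in MD was Cacna1d in each library, and Cacnb2 and Cacnb4 were lower in each. Cacnb2 is also in the α marker list, which includes genes of the study's tables, which draw on these libraries, so its direction is not independent evidence.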

How the data were processed

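Nuclei were sorted by GFP and profiled with a PIPseq 3′ kit, 1 library per region. Per the labels and the study's methods, the authors aligned reads to GRCm39 and made the deposited counts (UMI counts per gene and barcode) and clusters with PIPseeker. The submitters' processing notes also name bcl2fastq and Seurat 4.4.0. The annotation release and strand setting are not given in the sources used here. The authors' later correction for ambient RNA and doublets is not in these counts, and no doublet was removed here in the main values.

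From the deposited counts, gates set 4 classes among barcodes with Slc12a1 of at least 10. Counts were summed per class and library and given as CPM (counts per 1000000 counts) with exact Poisson 95% intervals, and ratios with conditional binomial 95% intervals (Python 3.11.15, numpy 2.4.6, scipy 1.17.1, pandas 2.3.3, scanpy 1.11.5). Total counts were 16457300 for the cortex and 20947211 for the medulla. With 1 library per region no test was run. Intervals and floors cover counting error only. The calculations were tested on simulated data. A member was named if it held at least 100 counts over the TAL classes or passed 2-fold in a comparison. Some of these members are not reported here, and the counts of members include them. The members, lists and comparisons were chosen with earlier results of these data known. Gene positions were matched by Ensembl ID in GENCODE M39, for 58 of 58 members. 10 alternatives were tried for each count, with 1 more added after the data were seen, as was the medullary MD comparison under these alternatives. In the alternative with deposited clusters, each cluster as a whole was given a class or left out. There cortical cluster 2, with 632 β nuclei by gate, stood for γ. Medullary cluster 10, with 17 β nuclei by gate among 135 barcodes, stood for β together with cluster 6.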

Additional observations from a re-analysis of the deposited data

Results flagged for a closer look

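Kcnn2 moved in opposite directions between γ and α nuclei of the libraries. The ratio of γ to α was 0.562 (0.390–0.787) among cortical γ-gate nuclei, on 36 counts, and 1.12 (1.02–1.22) in the medulla, on 1076 counts. Each region was 1 library, so the difference between these ratios was not tested. Cortical γ-gate nuclei held Cldn16 at 153 CPM and Kcnj10 at 144 CPM, against 55.0 and 109 CPM in medullary γ nuclei, so the gate took different nuclei in the libraries. The part of this in the Kcnn2 ratios was not tested.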

How the results depend on the processing

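No paired analysis was possible because each region was 1 library and no test was run. Leaving out a replicate was not possible for the same reason. Of 154 counts of members under an alternative, 134 lay within 1.5 times the value reported and 20 did not. Members higher in cortical β than α numbered 0 with the γ gate before the β gate and 0 with at least 50 counts for a ratio. Members lower there numbered 7 with the γ gate first, 7 without the 5% highest doublet scores, 8 without nuclei carrying markers of other cell types, 8 with deposited clusters, 10 with each nucleus weighted equally and 7 in the alternative that also left out missed MD nuclei. In the medulla β exceeded α for 1 member with stricter gates, 4 with the γ gate first and 3 with deposited clusters. γ exceeded α for 0 members without foreign markers, 0 with missed MD nuclei also left out and 0 at 50 counts, and was lower for 3 in each of the last 2. γ exceeded β for 3 and was lower for 2 with gates on thinned counts, and lower for 7 with the γ gate first. Members lower in medullary than cortical α numbered 11 with gates on thinned counts. The cause of these shifts was not tested, apart from the fewer genes compared at 50 counts.

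Of 66 ratios past 2-fold, 39 stayed past it under every alternative that gave a value and 26 did not, and Kcnc1 between regions had no value to compare. In both libraries Kcnc2, Kcnd3, Kcnd2, Kcnh7, Kcnj3 and Kcnh8 stayed past 2-fold in MD nuclei. The β-to-α ratio of Kcnma1 ranged from 0.163 to 0.378 in the cortex and from 0.326 to 0.566 in the medulla, the last with deposited clusters. That of Kcnt1 ranged from 0.266 to 0.559 in the cortex and from 0.157 to 0.586 in the medulla. The medullary excess of Kcnt1 in α ranged from 4.87 to 6.82. The cortical MD ratio of Kcnq1 ranged from 0.346 to 0.541. Of the ratios past 2-fold, those that crossed 1 rested on few counts. Kcnq3 in cortical MD was 0.967 with deposited clusters. Kcnb2 between γ and β was 0.874 with gates on thinned counts and 0.923 with deposited clusters, and Kcng3 was 0.940 with the γ gate first. Kcnh4 between regions was 1.12 without foreign markers, 1.22 with deposited clusters and 1.05 with missed MD nuclei also left out. Kcnh5 between cortical β and α was 0.581, 0.803 and 0.579 under the same 3, and Kcnmb2 was 0.507 with gates on thinned counts. Kcnk5 ratios short of 2-fold also crossed 1, on many counts. Its cortical β-to-α ratio of 1.12 (1.03–1.23) became 0.601 (0.533–0.677) with gates on thinned counts and 0.469 (0.248–0.834) without foreign markers. In the medulla γ to α went from 1.24 (1.02–1.52) to 0.462 (0.366–0.580) with gates on thinned counts. The 78 medullary MD nuclei held 166019 counts, so a gene with no count there may reach 18.1 CPM.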
